A study of Homo sapiens with 20 samples.

Results

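Cohesin is a ring-shaped complex that holds sister chromatids together and folds chromosomes into loops. It slides along DNA, is stopped at sites where the DNA-binding protein CTCF is bound, and can be pushed along genes by transcribing RNA polymerase. Under some conditions it can thereby gather at the 3′ ends of active genes. Convergent genes, whose tails face each other on opposite strands, are a particular case of this. RAD21 is the subunit that closes the ring, and each complex carries either SA1 or SA2 (stromal antigen 1 or 2). The cohesin peaks examined here were those at the 3′ ends of protein-coding genes. A peak was counted when its centre lay within 1 kb of such an end and more than 2 kb from the start of any gene, on chromosomes 1 to 22 and X of hg38 with GENCODE 44 genes. Of 188806 peaks in 6 lists, 3038 met this rule.

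The peaks came from chromatin immunoprecipitation followed by sequencing (ChIP-seq), in which an antibody recovers the DNA bound by a protein. Cells of 2 established lines were used, hTERT CHM13, which grew out of a complete hydatidiform mole, and hTERT RPE-1, of retinal pigment epithelium origin. Both carry telomerase (hTERT), which immortalises them, and each is a single line. The labels gave 3 replicates per antibody or input (total chromatin) for CHM13 and 2 for RPE-1, 20 libraries in all, with no treatment named for any group. SA1 and SA2 were recovered with the same antibodies in both lines, RAD21 with a different antibody in each line. Each of the 6 lists pools its replicates and gives only the start and end of each peak, so peaks could not be ranked by height and no error between replicates can be given. Intervals are 95% intervals that cover counting error only, and tests compare ends or peaks within a pooled list, which are not replicates of a condition. The peak lists hold no read depth. The read totals that the study states per library were not used here, and the part of depth in the length of the lists was not tested.

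In CHM13, 1046 of 73739 RAD21 peaks (1.42%), 625 of 38153 SA1 peaks (1.64%) and 649 of 44374 SA2 peaks (1.46%) lay at a 3′ end. In RPE-1, the counts were 372 of 14939 for RAD21 (2.49%), 202 of 10707 for SA1 (1.89%) and 144 of 6389 for SA2 (2.25%). The CHM13 lists thus gave more peaks at ends and the RPE-1 lists a higher share of their peaks. A further 473 RAD21 peaks in CHM13 and 147 in RPE-1 lay within 1 kb of an end but were too close to a gene start to be counted. Peaks at ends had a median width of 682 bp for RAD21 in CHM13, against 724 bp for the rest of that list, and of 442 bp in RPE-1, against 443 bp. Ends with more than 1 such peak numbered 11 for RAD21 in CHM13 and 2 in RPE-1.

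The places where all 6 lists had a peak at the same 3′ end show what such a site looks like. Below are 60 bases around the match to the CTCF core nearest to the RAD21 peak centre in CHM13, for 3 convergent pairs and 3 other ends. They are those with the peak centre nearest to the midpoint of the pair or to the end among sites whose match to the core lay outside exons, so nearer sites without such a match are not shown. The core searched was CCANNAGNNGGC on both strands, and the capitals mark the match. Each stretch is the hg38 reference, 5′ to 3′ in the direction of the match, and lies outside exons.
TJAP1 and LRRC73, chr6:43506864-43506923, minus strand: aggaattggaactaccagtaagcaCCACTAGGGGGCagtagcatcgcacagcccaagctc
PI4K2A and AVPI1, chr10:97676821-97676880, plus strand: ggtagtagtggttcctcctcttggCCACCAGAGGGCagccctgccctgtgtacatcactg
HES3 and GPR153, chr1:6246866-6246925, plus strand: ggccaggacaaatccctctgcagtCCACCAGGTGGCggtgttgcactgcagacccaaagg
GMFG, chr19:39328251-39328310, minus strand: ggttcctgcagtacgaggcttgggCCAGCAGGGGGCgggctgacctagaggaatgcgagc
AKR1A1, chr1:45570214-45570273, minus strand: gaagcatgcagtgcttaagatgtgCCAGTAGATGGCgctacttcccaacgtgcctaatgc
RCN3, chr19:49547136-49547195, minus strand: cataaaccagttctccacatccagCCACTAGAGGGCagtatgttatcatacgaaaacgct
The match lay 48 bp from the RAD21 peak centre between TJAP1 and LRRC73, 34 bp between PI4K2A and AVPI1 and 22 bp between HES3 and GPR153. It lay 8 bp from the centre at GMFG, 30 bp at AKR1A1 and 10 bp at RCN3. A match to these letters describes the sequence and does not show that CTCF was bound.

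To ask how often a 3′ end carried cohesin, ends were counted that had no gene start within 3 kb, so that the whole window of 1 kb to each side could hold a counted peak. GENCODE 44 gave 19970 protein-coding genes on these chromosomes and 19864 distinct 3′ ends, of which 14051 were open in this sense. RAD21 had a peak at 977 of these ends in CHM13 (6.95%), SA1 at 588 (4.18%) and SA2 at 612 (4.36%). In RPE-1, RAD21 had a peak at 357 ends (2.54%), SA1 at 189 (1.35%) and SA2 at 137 (0.975%). Over the 6 lists together, 1005 ends had a peak in at least 1 list and 100 had a peak in all 6. Most protein-coding 3′ ends therefore had no peak in these lists, and the remaining shares are read against these values.

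Of the open ends, 2825 belonged to convergent pairs, defined as having the 3′ end of a protein-coding gene on the other strand within 5 kb, and 11226 did not. The tails of the paired genes overlapped at 1101 of the convergent ends, by a median of 1173 bp, and were apart at 1724, by a median of 1542 bp. RAD21 peaks in CHM13 were found at 8.18% of convergent ends (7.22 to 9.25%, 231 ends) and at 6.65% of other ends (6.20 to 7.12%, 746 ends), an odds ratio of 1.25 (1.07 to 1.46, adjusted exact p = 0.00975, two-sided Fisher's exact test, Benjamini-Hochberg over the 6 lists). For SA1 in CHM13 the shares were 5.20% (4.44 to 6.09%) and 3.93% (3.58 to 4.30%), with an odds ratio of 1.34 (1.10 to 1.63, adjusted exact p = 0.00961). The largest odds ratio was that of RAD21 in RPE-1, with a peak at 3.50% of convergent ends (2.89 to 4.25%, 99 ends) and 2.30% of other ends (2.04 to 2.59%, 258 ends), an odds ratio of 1.54 (1.21 to 1.96, adjusted exact p = 0.00288).

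The other lists did not pass the test. SA2 in CHM13 had a peak at 4.85% of convergent and 4.23% of other ends, an odds ratio of 1.15 (0.942 to 1.40, adjusted exact p = 0.198). SA2 in RPE-1 had 1.20% and 0.918%, an odds ratio of 1.32 (0.863 to 1.96, adjusted exact p = 0.198). SA1 in RPE-1 had 1.38% and 1.34%, an odds ratio of 1.03 (0.706 to 1.48, adjusted exact p = 0.855). Whether the odds ratio differs between subunits or cell lines was not tested. The chromosomes on which convergent ends had the higher share numbered 16 of 23 for RAD21 in CHM13 and 14 of 23 in RPE-1. For SA1 and SA2 they numbered 14 and 13 of 23 in CHM13, and 5 and 8 of 23 in RPE-1. Chromosomes with equal shares were not counted as higher.

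**Figure D1:**
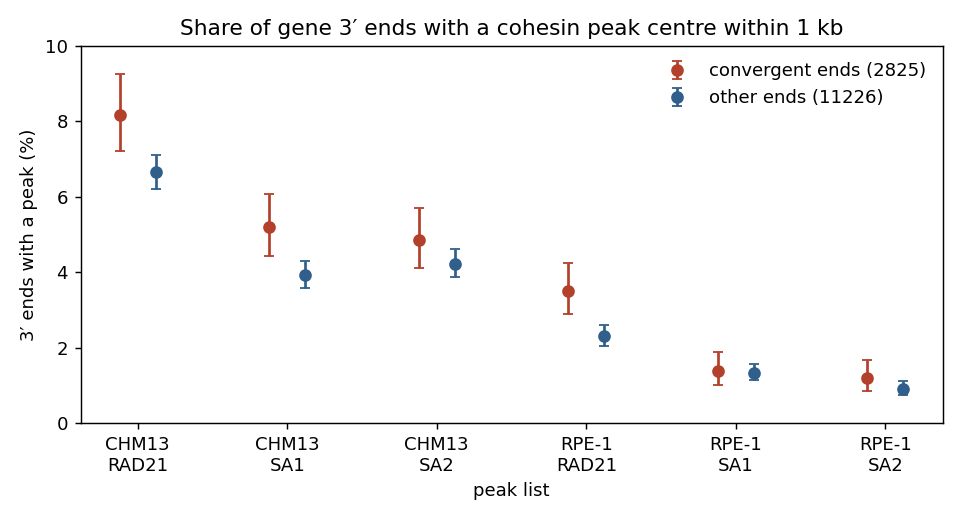
Share of open 3′ ends (%) with a peak centre within 1 kb, for each of the 6 peak lists, at 2825 convergent ends (red) and 11226 other ends (blue); points are shares and bars are 95% Wilson intervals for counting error. The red point lies above the blue one in each list, from 8.18% against 6.65% for CHM13 RAD21 to 1.38% against 1.34% for RPE-1 SA1, and the bars do not overlap for CHM13 RAD21, CHM13 SA1 and RPE-1 RAD21.

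Convergent ends differed from other ends in their surroundings as well as in their peaks. They had a median of 15 protein-coding ends within 500 kb, against 9 for other ends, and 48.4% of them fell in the gene-dense tertile of all open ends, against 28.2% of other ends. The median GC content within 200 bp of the end was 44.6% for convergent and 38.7% for other ends, and the median gene length was 26.1 kb and 39.8 kb. Among other ends alone, the gene-dense tertile had the highest share with a RAD21 peak in both lines, without a test. RAD21 peaks in RPE-1 were found at 1.07% of gene-poor, 2.20% of middle and 4.21% of gene-dense ends, and in CHM13 at 6.25%, 6.07% and 7.84%.

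Within gene-density tertiles, 5 of the 6 RAD21 odds ratios were below the value over all ends of the same line. In the gene-dense tertile, RAD21 in CHM13 had a peak at 10.5% of 1367 convergent ends and 7.84% of 3162 other ends, an odds ratio of 1.38 (1.11 to 1.72). In the gene-poor tertile the order was the opposite, 4.90% of 571 and 6.25% of 4655, an odds ratio of 0.773 (0.500 to 1.16). RAD21 in RPE-1 had odds ratios of 1.21 (0.885 to 1.64) in the gene-dense, 1.34 (0.819 to 2.14) in the middle and 0.650 (0.170 to 1.78) in the gene-poor tertile. Over 9 strata of gene density and GC content together, the common odds ratio was 1.07 (0.911 to 1.26, adjusted exact p = 0.765, exact conditional test over strata) for RAD21 in CHM13, 1.08 (0.879 to 1.32, adjusted exact p = 0.765) for SA1 in CHM13 and 1.02 (0.795 to 1.31, adjusted exact p = 0.852) for RAD21 in RPE-1. None of the 6 lists passed the test over these strata, in which the smallest unadjusted exact p was 0.373, and the intervals for RAD21 exclude the unstratified value in RPE-1 but reach 1.26 in CHM13. The strata of GC content and the test over strata were chosen after the unstratified values had been seen.

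**Figure D2:**
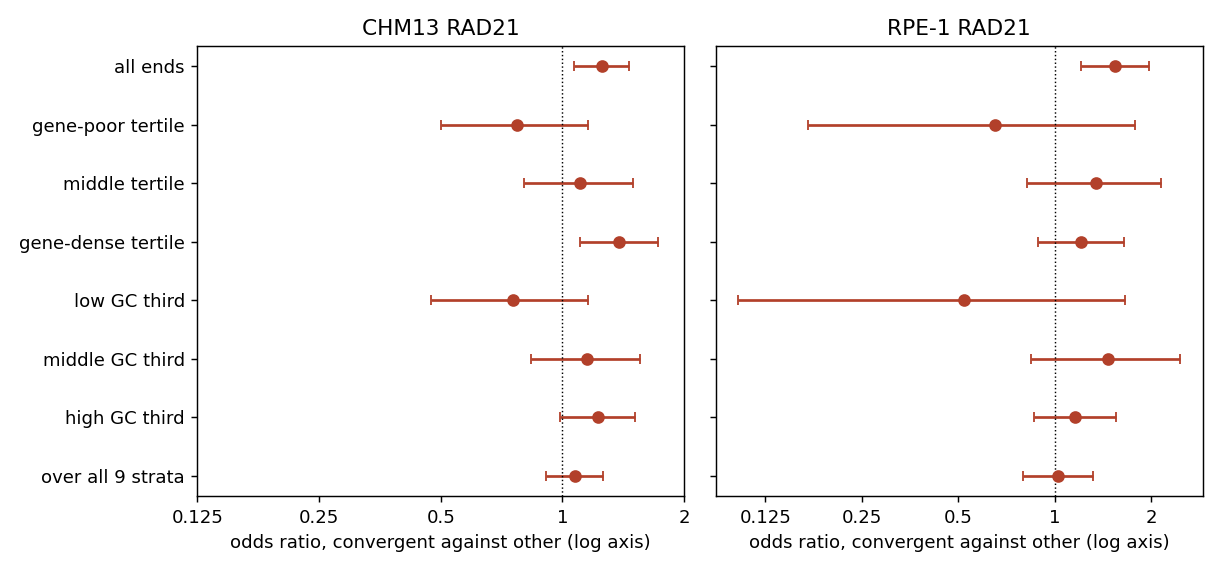
Odds ratio of having a RAD21 peak, convergent against other ends, on a log axis, for CHM13 (left) and RPE-1 (right), over all ends, within each gene-density tertile, within the 3 groups of GC content, and over all 9 strata; bars are 95% intervals. The value over all ends is 1.25 in CHM13 and 1.54 in RPE-1, and over the 9 strata it is 1.07 and 1.02 with bars that cross 1.

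The density of peaks at ends was then set against that of sequence near the same ends. Within 1 kb of 3′ ends, RAD21 peaks in CHM13 lay at 35.2 per Mb, against 27.1 per Mb in the bodies of the same genes 3 to 10 kb upstream, a ratio of 1.30 (1.21 to 1.39, adjusted exact p = 2.08e-11, exact conditional binomial test of the rates). In RPE-1 the RAD21 densities were 12.5 and 8.86 per Mb, a ratio of 1.41 (1.25 to 1.60, adjusted exact p = 1.14e-07). The stromal antigens gave ratios of 1.33 and 1.29 for SA1 and SA2 in CHM13 and of 1.25 and 1.41 in RPE-1, each past the threshold, with the largest adjusted exact p at 0.00878 for SA1 in RPE-1. The GC content of the compared sequence was 44.2% at ends and 45.0% in bodies. All 6 lists thus had denser peaks within 1 kb to either side of the end than in the body of the gene. This window reaches past the gene, and downstream sequence was itself denser than the body in each list. For SA1 in RPE-1 it held 8.63 per Mb at 3 to 10 kb downstream, against 5.45 per Mb in bodies. The gene side of the window was not compared with the body by itself.

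Against sequence further downstream, the result depended on the list and the distance. At 3 to 10 kb downstream and outside protein-coding genes, RAD21 peaks lay at 32.3 per Mb in CHM13, a ratio of end to downstream of 1.09 (1.01 to 1.17, adjusted exact p = 0.0825). In RPE-1 the downstream density of RAD21 was 13.0 per Mb, a ratio of 0.962 (0.849 to 1.09, adjusted exact p = 0.770), and for SA1 it was 8.63 per Mb against 6.79 at the end, a ratio of 0.787 (0.666 to 0.927, adjusted exact p = 0.0215). At 2 to 5 kb downstream, the end was less dense for RAD21 in RPE-1 (ratio 0.823, adjusted exact p = 0.0159, exact conditional binomial test). SA1 (0.706, adjusted exact p = 0.000841) and SA2 (0.770, adjusted exact p = 0.0363) in RPE-1 also passed below 1 there, and no CHM13 list passed. Against the sequence 10 to 20 kb downstream, the end was denser for RAD21 in CHM13 (ratio 1.16, adjusted exact p = 0.000597), for SA1 in CHM13 (1.11, adjusted exact p = 0.0488) and, turned from below 1, for RAD21 in RPE-1 (1.18, adjusted exact p = 0.0262). Ends of convergent pairs alone gave a ratio of end to body of 1.47 (1.24 to 1.72) for RAD21 in CHM13 and 1.42 (1.08 to 1.85) in RPE-1, and other ends gave 1.26 (1.16 to 1.37) and 1.42 (1.23 to 1.63).

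In steps of 500 bp, the highest RAD21 density at convergent ends was just past the end in both lines. In the first 500 bp downstream of convergent ends, RAD21 peak centres lay at 60.0 per Mb in CHM13 (95 centres) and 30.3 per Mb in RPE-1 (48 centres). At other ends the same step held 41.5 per Mb in CHM13 (258 centres) and 14.6 per Mb in RPE-1 (91 centres). At other ends in RPE-1 this step was not the highest, since RAD21 reached 17.1 per Mb at 4500 to 5000 bp downstream. The step before it, inside the convergent gene, held 41.0 and 11.4 per Mb, and the step after it 30.2 and 13.2 per Mb. Across the limit of the 1 kb window downstream of other ends, the density went from 33.2 to 33.2 per Mb in CHM13 and from 13.9 to 10.4 per Mb in RPE-1. A peak between the tails of a close pair counts for both ends of the pair in these densities.

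**Figure D3:**
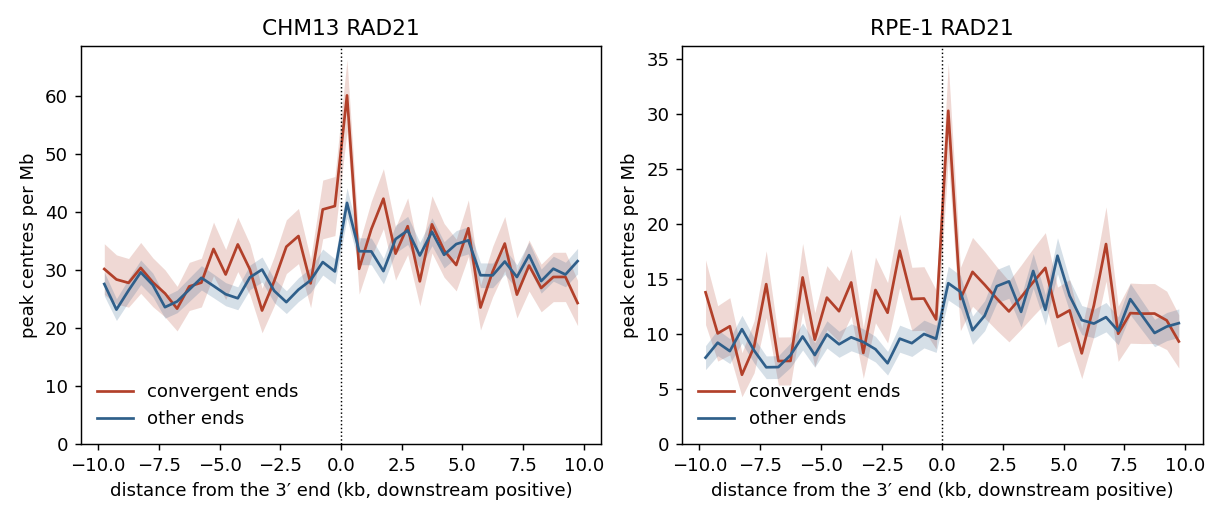
RAD21 peak centres per Mb of sequence more than 2 kb from any gene start, in 500-bp steps from 10 kb upstream to 10 kb downstream of 3′ ends, for CHM13 (left) and RPE-1 (right), at convergent (red) and other ends (blue); shading is the square root of the count to each side. The highest red value is in the first 500 bp downstream, 60.0 per Mb in CHM13 and 30.3 per Mb in RPE-1, where the blue values are 41.5 and 14.6 per Mb.

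Between the tails of convergent pairs, peaks were denser than in the tails in each list, and the difference passed the test in 5 of the 6. There were 1283 pairs with a gap, and the gap was set against the last 1 kb of both genes. RAD21 peaks in RPE-1 lay at 23.9 per Mb of gap (44 centres) and 8.92 per Mb inside the genes (17 centres), a ratio of 2.68 (1.50 to 5.01, adjusted exact p = 0.00178, exact conditional binomial test). In CHM13 the RAD21 values were 48.4 and 36.7 per Mb, a ratio of 1.32 (0.952 to 1.83, adjusted exact p = 0.0955). SA1 and SA2 had ratios of 1.59 (1.06 to 2.42) and 1.64 (1.06 to 2.56) in CHM13 and of 2.28 (1.04 to 5.39) and 2.81 (1.13 to 7.92) in RPE-1, each past the threshold, with adjusted exact p between 0.0355 and 0.0393. This comparison was chosen after the peaks had been counted. The GC content of gaps and tails was not compared.

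More than 50% of the peak centres in each list lay past the end, in the direction of transcription. The share was 54.9% (51.8 to 57.9%) for RAD21 in CHM13, 57.0% for SA1 and 56.7% for SA2, and in RPE-1 it was 60.5% (55.4 to 65.3%) for RAD21, 65.8% for SA1 and 66.7% for SA2. Over the whole window of each end, the sequence open to a counted peak was divided almost evenly, with 49.8% of it downstream. That count takes no account of which end was nearest, whereas each peak was placed by its nearest end. The median position of the centre was 106 bp past the end for RAD21 in CHM13 and 164 bp in RPE-1. No difference between convergent and other ends in the share past the end passed the test. Between the tails of a pair, a peak past the middle of the gap counted for the partner. Convergent and other ends therefore did not offer the same sequence on each side. For this reason the test cannot tell whether the position of peaks differs between them. For RAD21 in CHM13 the shares were 54.6% of 207 and 54.9% of 839 peaks, an odds ratio of 0.986 (0.718 to 1.36), and in RPE-1 64.1% of 78 and 59.5% of 294, an odds ratio of 1.21 (0.704 to 2.12). The adjusted exact p was 0.938 in each of the 6 lists by Fisher's exact test.

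By annotation, the centres of RAD21 peaks at ends in CHM13 lay in a 3′ UTR in 38.0% of cases, outside genes in 38.3% and in an intron of a coding gene in 12.4%. The windows they were drawn from consisted of 40.5% 3′ UTR, 34.0% sequence outside genes and 15.2% coding intron. In RPE-1, 32.5% of RAD21 centres at ends were in a 3′ UTR and 46.0% outside genes, and for SA2 the shares were 28.5% and 50.0%.

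All 3 subunits had a peak at 50.5% of the ends with any peak in CHM13 and at 26.2% in RPE-1, lines whose lists differ in length. Of 1000 open ends with a peak of any subunit in CHM13, 505 had all 3 subunits, 313 had RAD21 alone, 91 had RAD21 and SA2, and 68 had RAD21 and SA1. SA1 or SA2 without RAD21 was found at 7 and 8 ends, and SA1 with SA2 but no RAD21 at 8. Of 390 such ends in RPE-1, 175 had RAD21 alone, 102 had all 3, 57 had RAD21 and SA1, and 23 had RAD21 and SA2. Without RAD21, 21 had SA1 alone, 3 had SA2 alone and 9 had SA1 with SA2. The RAD21 lists were the longest in both lines, so the count of ends with RAD21 alone moves with list length. RAD21 alone made up 57.5% of the convergent and 40.1% of the other ends in RPE-1, and 29.1% and 32.0% in CHM13, differences that were not tested.

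**Figure D4:**
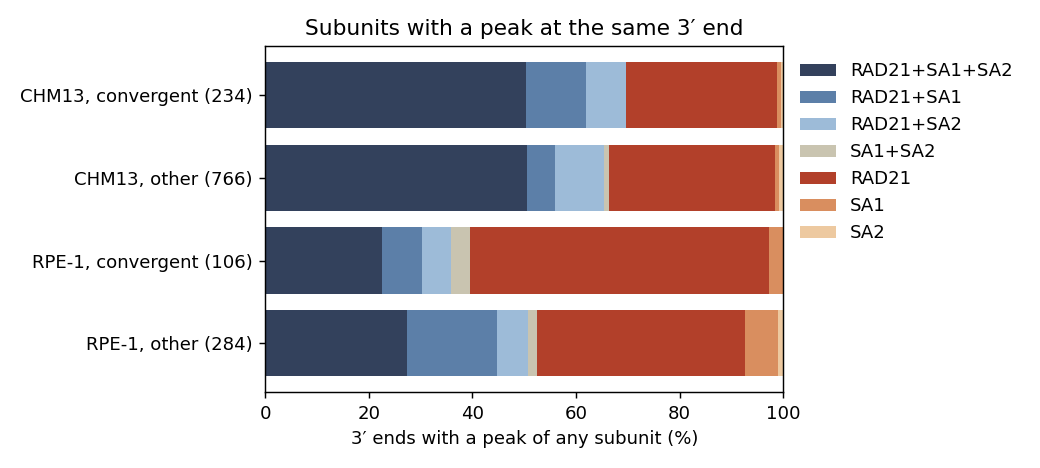
Subunits with a peak within 1 kb of the same open 3′ end, as a percentage of the ends with a peak of any subunit, for convergent and other ends in CHM13 and RPE-1 (numbers of ends in parentheses). All 3 subunits share 50.4% of the convergent and 50.5% of the other ends in CHM13, and 22.6% and 27.5% in RPE-1, where RAD21 alone is the longest bar segment.

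Set against the other peaks of the same list, peaks at 3′ ends overlapped both other subunits more often, past the threshold, in 4 of the 6 lists. RAD21 peaks in CHM13 did so in 52.9% of cases at ends (49.8 to 55.9%) and 43.0% elsewhere, an odds ratio of 1.49 (1.31 to 1.69, adjusted exact p = 5.69e-10, Fisher's exact test). SA2 in CHM13 had 85.8% and 72.4%, an odds ratio of 2.31 (1.84 to 2.91, adjusted exact p = 4.62e-15), and SA1 in CHM13 had 88.6% and 84.3%, an odds ratio of 1.45 (1.13 to 1.89, adjusted exact p = 0.00397). The SA1 difference did not pass the test against peaks more than 2 kb from any gene start, with an odds ratio of 1.23 (adjusted exact p = 0.161). SA1 in RPE-1 had 55.9% and 45.0%, an odds ratio of 1.55 (1.16 to 2.08, adjusted exact p = 0.00397). RAD21 in RPE-1 had 30.4% and 32.5%, an odds ratio of 0.907 (0.718 to 1.14, adjusted exact p = 0.481), and SA2 in RPE-1 had 78.5% and 75.8%, an odds ratio of 1.17 (0.774 to 1.80, adjusted exact p = 0.492).

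Nearly all RPE-1 peaks at ends had a CHM13 peak of the same subunit over them. This held for 369 of 372 RAD21 peaks (99.2%), against 97.1% of the other RAD21 peaks, an odds ratio of 3.73 (1.26 to 18.3, adjusted exact p = 0.0329, Fisher's exact test). For SA1 it held for 200 of 202 peaks (99.0% against 97.4%, adjusted exact p = 0.375) and for SA2 for 143 of 144 (99.3% against 98.5%, adjusted exact p = 0.727). In the other direction, 35.0% of RAD21 peaks at ends in CHM13 had an RPE-1 peak over them, against 19.3% of the rest, and for SA1 and SA2 the shares were 32.2% against 27.2% and 22.3% against 14.0%. Open ends with a peak in RPE-1 lists alone numbered 5.

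Matches to the CTCF core were many times more frequent around the centres of these peaks than directly around ends without a peak. Of 13046 open ends without a peak in any list, 148 (1.13%, 0.967 to 1.33%) had a match within 200 bp of the end. A peak centre could lie anywhere within 1 kb of its end, so the places searched differ. The rest of the 1 kb window was not searched at ends without a peak. The median GC content of these ends was 39.4%, below that of the peaks given in the next paragraph, and the part of GC content in this gap was not tested. RAD21 peaks at ends in CHM13 had a match within 200 bp of the centre in 23.2% of cases (20.8 to 25.9%), against 12.8% of the other peaks of the list, an odds ratio of 2.07 (1.78 to 2.39, adjusted exact p = 2.84e-19, Fisher's exact test). SA1 in CHM13 had 31.0% and 20.7%, an odds ratio of 1.72 (1.45 to 2.05, adjusted exact p = 4.08e-09), and SA2 had 27.6% and 17.9%, an odds ratio of 1.75 (1.46 to 2.09, adjusted exact p = 4.04e-09). In RPE-1 the shares were 37.6% and 33.4% for RAD21, 35.6% and 31.5% for SA1, and 39.6% and 32.6% for SA2, with adjusted exact p between 0.114 and 0.221.

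GC content moved with this result. The median GC content within 200 bp of the centre was 47.9% for RAD21 peaks at ends in CHM13 and 43.1% for the rest, and 53.7% and 48.9% in RPE-1. Over 10 strata of equal size in GC content the common odds ratio was 1.77 (1.52 to 2.05, adjusted exact p = 3.11e-12, exact conditional test over strata) for RAD21 in CHM13, 1.48 for SA1 and 1.48 for SA2 (adjusted exact p = 3.98e-05 for both), and 1.16, 1.13 and 1.26 in RPE-1. Among RAD21 peaks at ends in CHM13, 30.0% of those at convergent ends and 21.6% of those at other ends had a match, and in RPE-1 38.5% and 37.4%, without a test. Where the match had a single orientation, its letters ran along the transcription of the gene in 53.5% of 241 RAD21 peaks in CHM13 (47.2 to 59.7%) and in 59.0% of 139 in RPE-1 (50.7 to 66.8%).

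**Figure D5:**
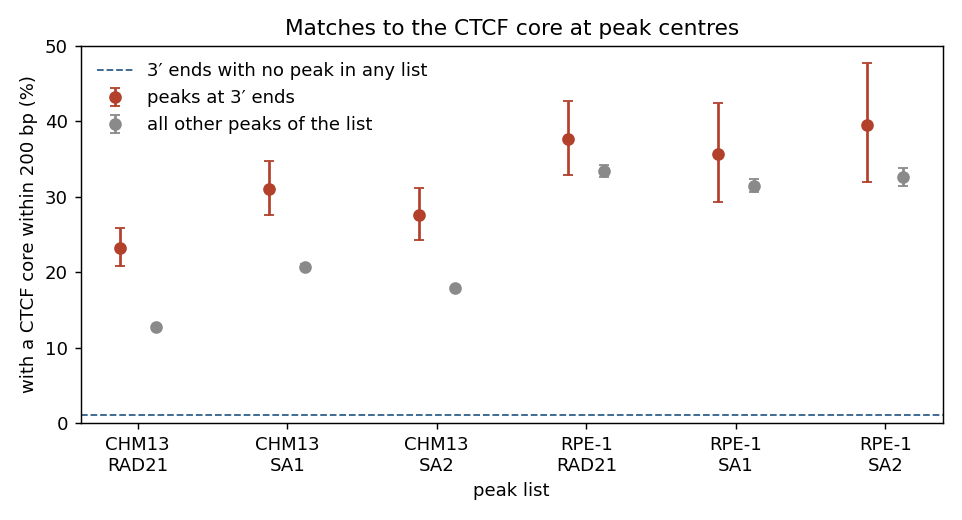
Share of peaks (%) with a match to the CTCF core within 200 bp of the centre, with 95% Wilson intervals. Peaks at 3′ ends are red and all other peaks of each list grey. The dashed line, 1.13%, is the share of ends without a peak in any list that had a match within 200 bp of the end itself. Red lies above grey by the most in the CHM13 lists, with 23.2% against 12.8% for RAD21, and both lie far above the dashed line in every list.

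Convergent pairs with a peak in all 6 lists between their tails or within 1 kb of both ends numbered 13, and 7 of the 8 with the most central RAD21 peak in CHM13 are described. TJAP1 encodes a tight junction-associated protein, and its end and that of LRRC73 were 412 bp apart on chromosome 6. The 6 peak centres lay between 263 and 314 bp past the end of TJAP1. PI4K2A, a phosphatidylinositol 4-kinase, and AVPI1 were 990 bp apart on chromosome 10, with centres between 383 and 455 bp past the end of PI4K2A. HES3, a basic helix-loop-helix repressor, and GPR153, an orphan receptor, were 1775 bp apart on chromosome 1, with centres between 1331 and 1403 bp past the end of HES3, on the GPR153 side. In these 3 pairs the peaks of all 6 lists held a match to the CTCF core, in the plus orientation at PI4K2A and HES3 and the minus orientation at TJAP1.

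Of the remaining pairs, ELOVL3, a fatty acid elongase, and PITX3, a homeobox factor of lens and midbrain dopamine neurons, were 600 bp apart on chromosome 10. Their centres lay between 387 and 839 bp past the end of ELOVL3. The RAD21 peak in CHM13 was 1681 bp wide there and the SA2 peak in RPE-1 358 bp. NKIRAS2, a Ras-like regulator of NF-kappa B inhibitors, and ZNF385C overlapped by 68 bp on chromosome 17, and the centres lay between 508 and 622 bp inside NKIRAS2, in a 3′ UTR. CMTM5 and MYH6, the alpha myosin heavy chain of the heart, were 2210 bp apart on chromosome 14, with centres between 292 and 343 bp past the end of CMTM5. ADIPOR2, an adiponectin receptor, and CACNA2D4, a calcium channel subunit, were 3289 bp apart on chromosome 12, with centres between 2534 and 2645 bp past the end of ADIPOR2. At CMTM5 and ADIPOR2 no peak held a match to the CTCF core within 200 bp of its centre, and at NKIRAS2 each of the 6 did. At ELOVL3 the SA1 and SA2 peaks of both lines held such a match. The RAD21 peaks of both lines had none within 200 bp of their centres. They span the sequence searched at the SA1 and SA2 peaks, however, and so hold the same match farther from their centres.

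Other ends with a peak in all 6 lists numbered 76, and the 8 with the RAD21 centre in CHM13 nearest to the end are described. PFDN1 encodes a subunit of prefoldin, a chaperone for actin and tubulin, and its centres were 11 bp inside the gene for RAD21 in CHM13 and between 344 and 374 bp past the end in the RPE-1 lists. OR52K1, an olfactory receptor, had centres from 119 bp inside to 11 bp past its end. MGAT1, which starts the processing of N-linked glycans, had centres from 58 bp inside to 59 bp past its end, and SNRPE, an Sm protein of the spliceosome, between 45 and 143 bp past it. PRPF40B, a splicing factor, had centres between 65 and 84 bp past its end, GMFG, glia maturation factor gamma, between 80 and 148 bp past it, and IPCEF1 between 84 and 147 bp inside it. The gene ENSG00000280778, given by its identifier alone, had centres between 34 and 99 bp inside its end. Among these ends PFDN1 was the one at which the centres of the lists lay farthest apart. Within 200 bp of the centre, OR52K1, PRPF40B, GMFG and IPCEF1 had a CTCF core match in each list. MGAT1, SNRPE and ENSG00000280778 had such a match in none, and PFDN1 in the RPE-1 lists alone. The CHM13 peaks at PFDN1, 1229 to 1518 bp wide, span the sequence searched in RPE-1. They therefore hold the same match, farther from their centres.

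Ends with a peak in at least 2 RPE-1 lists and no CHM13 peak centre of any subunit within 1 kb numbered 2. A CHM13 peak centred beyond 1 kb could still overlap the RPE-1 peaks, which was not examined at these ends. CTRL, a chymotrypsin-like protease on chromosome 16 whose tail overlaps that of the kinase gene PSKH1, had RAD21 and SA2 centres 973 and 996 bp inside the gene, near the limit of the 1 kb window. GSTT2, a glutathione S-transferase on chromosome 22, had RAD21, SA1 and SA2 centres 727, 738 and 718 bp past its end. GSTT2 has a near-identical neighbouring copy, so reads there can be shared and these peaks are uncertain.

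Lists of genes by function were counted at their open ends against the shares given above for all open ends. Of 13 ends of genes transcribed highly in most cells (a list with ACTB, GAPDH and EEF1A1 among its genes), 0 had a peak in any list, which allows a share of up to 23.1%. Of 14 ends of trophoblast genes (a list with GATA3 and TFAP2C) 0 did, which allows up to 21.4%. Among 15 ends of matrix and cytoskeleton genes, RAD21 had a peak at 3 in CHM13 and at 1 in RPE-1. Of 13 ends of pigment epithelium genes, 1 had an SA1 peak in both lines and 0 a RAD21 peak. Ribosomal protein genes had 36 open ends, 2 of them with RAD21 peaks in CHM13 and 1 in RPE-1. Zinc finger genes of the ZNF series had 384, of which 18 (4.69%) had a RAD21 peak in CHM13 and 5 (1.30%) in RPE-1, and ZNF385A and ZNF385C had a peak in all 6 lists. Olfactory receptor genes, which are silent in most tissues, had 170 open ends, with RAD21 peaks at 7 (4.12%) in CHM13 and 3 (1.76%) in RPE-1. Replication-dependent histone genes had 8 open ends and 0 with a peak, which allows up to 37.5%. No test was made of these counts, and gene activity in these cells was not analysed here.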

How the data were processed

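The data analysed were 6 deposited lists of ChIP-seq peak positions on hg38, 1 per cell line and subunit. According to the methods and labels, the authors used bwa mem for paired reads, removed unwanted alignments with samtools, ran macs on each replicate, merged replicates and dropped loci not seen in multiple replicates. The methods state this for CHM13 v1.0 and give no separate account for hg38. The deposited values have no other unit than positions in bp, with no signal or p-value, and the lists hold no depth (the read totals in the study's supplement were not used). Lists on CHM13 v1.0 were not used, since no annotation of that build was at hand. All 6 hg38 lists lay within the chromosomes of the sequence used (0 peaks past an end).

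Gene ends came from GENCODE 44. Computation was done with matplotlib 3.10.9, numpy 2.4.6, pandas 2.3.3, pysam 0.24.0 and scipy 1.17.1 under Python 3.11.15, and in R 4.3.3 for strata. Shares carry Wilson intervals, odds ratios conditional exact intervals, and rates and common odds ratios over strata exact conditional intervals. Adjustment was by Benjamini-Hochberg over the 6 lists (3 for sharing between lines), at 0.05. Overlap meant at least 1 bp. Tests were tested on simulated data. Genes named are the 8 most central convergent pairs and the 8 most central other ends with peaks in all 6 lists, ends with peaks in RPE-1 alone, and members of fixed lists with peaks in all 6 (1 of the pairs is not reported here); neighbouring ends can share a peak. Members, lists and rules were chosen with earlier results of these data known. Alternatives concerned windows, pair definition, annotation, peak width, joining, overlap, gene density and GC content.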

Additional observations from a re-analysis of the deposited data

How the results depend on the processing

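No paired analysis was possible because each list pools its replicates and carries no replicate numbers, and for the same reason no replicate could be left out. The convergent comparison depended most on the setting. The 3 odds ratios that passed (CHM13 RAD21, CHM13 SA1, RPE-1 RAD21, in this order below) also passed for pairs within 2 kb, 500-bp and 2-kb windows, overlap with the window, 1 end per pair, partners of any gene type, canonical ends and joined peaks. They no longer passed for pairs within 10 kb (1.17, 1.18, 1.35), for wider peaks (0.963, turned, then 1.08 and 1.32), in the middle tertile of gene density (1.10, 1.25, 1.34), in the gene-poor tertile (0.773, turned, 1.03, and 0.650, turned), in the lowest GC group (0.754, 0.985 and 0.522, all turned), in the middle GC group (1.15, 1.44, 1.47), in the highest GC group (1.22, 1.10, 1.16), stratified by gene density (1.16, 1.18, 1.19), by GC content (1.11, 1.16, 1.16) or by both (1.07, 1.08, 1.02). In the gene-dense tertile CHM13 RAD21 passed, and CHM13 SA1 (1.19) and RPE-1 RAD21 (1.21) did not. CHM13 SA2 passed with 500-bp windows (1.37), 2-kb windows (1.26) and starts of protein-coding genes alone (1.21), and RPE-1 SA2 with 500-bp windows (1.88). All GC groups and values over strata were chosen after seeing the data. Fewer ends or peaks were tested within each tertile, GC group and width class, and the part of gene density and GC content in the pooled difference was not tested beyond these values.

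The ratio of end to body did not pass for RPE-1 SA1 with wider peaks (1.17) and passed in the 17 other values. The ratio of end to downstream sequence moved with the distance. At 2 to 5 kb it passed below 1 for RPE-1 RAD21 (0.823) and RPE-1 SA2 (0.770). At 10 to 20 kb it passed for CHM13 RAD21 (1.16), CHM13 SA1 (1.11) and, turned, RPE-1 RAD21 (1.18), and no longer for RPE-1 SA1 (0.909), and the cause was not tested. Overlap with both other subunits did not pass for CHM13 SA1 against peaks more than 2 kb from any gene start (1.23). The remaining comparisons, of CTCF core matches, downstream share and sharing between lines, stayed on their side of the threshold in all alternatives run. With pooled lists, errors between replicates are unknown, and intervals are too narrow where neighbouring ends share a peak.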
